A study of Mus musculus with 14 samples.

Results

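The caput and the cauda, the first and the last region of the epididymis, were compared in whole tissue by small RNA sequencing. Of the 14 libraries of the study, 6 enter this comparison, 3 from the caput and 3 from the cauda. All mature miRNAs with a mean count above 10 in the caput or in the cauda are described, which were 355 of the 900 listed. Both groups were adult male Swiss mice of 8 weeks, the labels of which give no treatment or genetic change. Blood had been washed from the vessels with PBS, and each replicate was a pool of tissue from at least 3 mice. A step to flush spermatozoa from the duct is described for the isolated epithelial cells only, so that a whole tissue library may hold RNA of the duct wall, of vessels and of luminal sperm. The 2 other whole tissue libraries, from the corpus between the 2 regions, were used for the estimate of the spread and to place the changes along the duct. The methods give 2 biological replicates per region where 3 libraries are held for the caput and for the cauda, and nothing in the labels says that the 3 came from separate pools. The adjusted p-values therefore measure the spread between these libraries, which may in part be technical.

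The 6 libraries held between 1457959 and 2135501 counts. Levels are given as CPM, the count of a miRNA scaled to 1000000 counts of its library, after scaling by edgeR's TMM method, and library values follow the order of the replicate numbers. Replicates differed by more than counting noise, with a chi-square per degree of freedom between 24.7 and 63.9 for pairs within the caput or the cauda, and no pair held identical values. Across the 355 miRNAs, log2 CPM correlated at 0.981 to 0.993 between libraries of a region and at 0.868 to 0.893 between the regions. A miRNA was called when the FDR was below 0.05 and the change at least 2-fold in limma-voom, and "rose" or "fell" is used below from caput to cauda for called miRNAs only.

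A mature miRNA is cut, as the 5p or the 3p arm, from a short hairpin RNA, and it represses messenger RNAs that pair with its seed, bases 2 to 8 from its 5′ end. Related miRNAs that share a seed can therefore recognise the same messages, and hairpins that lie close together in the genome are often cut from a common transcript. The epididymis is a single coiled duct in which spermatozoa mature during passage through the caput and corpus and are stored in the cauda. Its epithelium differs from region to region, and the layer of smooth muscle around the duct thickens towards the cauda.

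The mature sequences of the miRNAs on which the results turn are shown from RefSeq (GRCm38.p6), 5′ to 3′, with the seed in capitals. Sequences of 298 of the 355 miRNAs were matched by name. The first set holds miR-196 and miR-10, both encoded within Hox gene clusters and moving in opposite directions, and the pair miR-196a and miR-196b, like the pair miR-10a and miR-10b, differs at a single base. Counted from the 5′ end, the substitution is A12C from miR-196a-5p to miR-196b-5p and U12A from miR-10a-5p to miR-10b-5p, so that the seed is shared within each pair.
miR-196a-5p: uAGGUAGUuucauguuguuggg
miR-196b-5p: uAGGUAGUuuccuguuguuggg
miR-10a-5p: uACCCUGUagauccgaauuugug
miR-10b-5p: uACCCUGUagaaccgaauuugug
The second set holds 4 of the 5 largest falls among miRNAs above 100 CPM.
miR-204-5p: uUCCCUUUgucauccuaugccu
miR-9-5p: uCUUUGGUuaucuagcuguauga
miR-138-5p: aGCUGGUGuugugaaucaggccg
miR-135a-5p: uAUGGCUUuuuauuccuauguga
The third set is the miR-200 family, which has 2 seeds, and every member shown fell.
miR-200b-3p: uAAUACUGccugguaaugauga
miR-200c-3p: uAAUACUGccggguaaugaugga
miR-429-3p: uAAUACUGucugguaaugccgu
miR-141-3p: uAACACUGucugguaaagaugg
miR-200a-3p: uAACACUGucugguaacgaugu
The fourth set is from the X-linked cluster that rose, in which the first 3 shown are nearly alike.
miR-465a-5p: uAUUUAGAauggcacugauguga
miR-465c-5p: uAUUUAGAauggcgcugaucug
miR-465b-5p: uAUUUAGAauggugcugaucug
miR-871-5p: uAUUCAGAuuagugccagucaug
miR-743b-3p: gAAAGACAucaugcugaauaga
miR-881-3p: aACUGUGUcuuuucugaauaga
The fifth set holds abundant miRNAs, with the related miR-148b-3p for comparison.
miR-22-3p: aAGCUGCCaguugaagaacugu
miR-148a-3p: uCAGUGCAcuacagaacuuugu
miR-148b-3p: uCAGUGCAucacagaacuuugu
miR-191-5p: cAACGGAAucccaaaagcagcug
miR-26a-5p: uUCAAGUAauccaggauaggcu

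Of the 355 miRNAs, 189 (53.2%) were called, 99 higher in the cauda (27.9%) and 90 lower (25.4%). Of the 282 that passed the count minimum in both regions, 62 were called higher (22%) and 63 lower (22.3%). In bulk tissue, a change in the share of a cell type and a change of the miRNA level per cell cannot be told apart. A further 92 had an FDR below 0.05 with a change under 2-fold. For 109 miRNAs, among them miR-22-3p, miR-21a-5p and 6 of 9 let-7 guides, the 95% confidence interval of the change lay wholly within 2-fold in either direction. The libraries of the regions did not overlap for 287 miRNAs (80.8%), and this held for 187 of the 189 called, all but miR-155-5p and miR-485-5p. There were 52 rises and 34 falls of at least 4-fold, 16 and 13 of at least 8-fold and 4 and 3 of at least 16-fold, where a region with no more than 3 counts in every library was set to 3 counts.

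**Figure D1:**
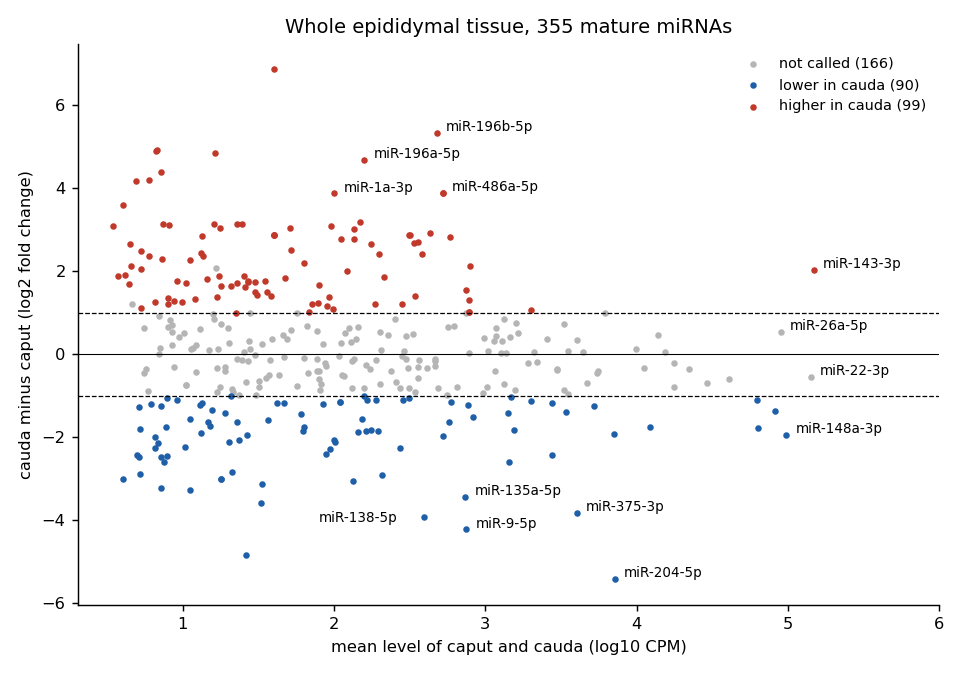
Change from caput to cauda (log2 fold change, y axis) against the mean level of both regions (log10 CPM, x axis) for the 355 miRNAs, 1 point each, with dashed lines at a 2-fold change. The 99 miRNAs called higher and the 90 called lower lie on both sides of those not called, and among the most abundant miRNAs miR-143-3p stands above the upper line and miR-148a-3p below the lower one.

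The called miRNAs took up a large share of each library. The 99 that rose held 5.57 ± 0.74% of the counts of a caput library (mean ± SD, n = 3), 9.72 ± 0.134% of a corpus library (n = 2) and 28.5 ± 1.25% of a cauda library (n = 3). Most of this was miR-143-3p, and without it the other 98 went from 0.512 ± 0.0385% of caput counts through 1.27 ± 0.0726% of corpus counts to 2.47 ± 0.136% of cauda counts. The 90 that fell went from 47.9 ± 2.62% in the caput through 42.4 ± 0.069% in the corpus to 19.7 ± 0.532% in the cauda. The same 10 miRNAs were the most abundant in both regions and took 74.7 ± 0.382% of the caput counts and 75.5 ± 0.195% of the cauda counts. Of the 73 miRNAs with at least 1000 CPM in a region, 8 rose, 21 fell and 36 were held within 2-fold.

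Among the 5 most abundant miRNAs of the caput, 4 fell. miR-148a-3p, a miRNA best known from liver, was at 146047, 140847 and 178556 CPM in the caput and 43434, 39398 and 38079 CPM in the cauda and fell 3.83-fold (log2 fold change -1.94, SE 0.10, adjusted p = 9.3e-08). miR-191-5p was at 92694, 98283 and 102086 CPM in the caput and 30773, 25209 and 30372 CPM in the cauda and fell 3.40-fold (log2 fold change -1.77, SE 0.09, adjusted p = 9.12e-08). The caput libraries all stood above the cauda libraries for both, and the same was so for miR-10b-5p and miR-10a-5p, described with the Hox miRNAs. The most abundant of the 5, miR-22-3p, was at 147097, 192802 and 163424 CPM in the caput and 107254, 118890.0 and 118085 CPM in the cauda, a change of -0.54 (95% confidence interval -0.76 to -0.33) on the log2 scale that lay within 2-fold. In the cauda the most abundant miRNA was miR-143-3p, which is known from smooth muscle and is encoded beside miR-145a. It was at 65458, 57182 and 52891 CPM in the caput and 244535, 221698 and 246968 CPM in the cauda and rose 4.08-fold (log2 fold change 2.03, SE 0.09, adjusted p = 5.94e-08), to between 24.7 and 26.8% of the counts of a cauda library. miR-26a-5p, widely expressed in mouse tissues, was at 69167, 79772 and 70916 CPM in the caput and 103320.0, 118831 and 98394 CPM in the cauda, a change of 0.54 (95% confidence interval 0.35 to 0.74) that was not called.

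Marker miRNAs of smooth muscle, striated muscle and red blood cells were higher in the cauda, those of stroma and leukocytes were called in some cases and not in others, and the endothelial ones were held within 2-fold. Their part in the other results was not tested. Of the arms of miR-143 and miR-145a, the 3 that passed the count minimum in both regions rose, beside 22% of the 282 miRNAs above it in both. Their median log2 fold change was 2.03, where that of all 355 miRNAs was -0.05. The call of miR-143-5p, which passed the minimum only through the cauda, adds no support. The summed level was 53219 to 65965 CPM in the caput and 223148 to 249053 CPM in the cauda. miR-145a-5p, the arm of miR-145 that marks contractile smooth muscle, was at 397, 257 and 238 CPM in the caput and 1045, 1117 and 1689 CPM in the cauda.

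Of striated muscle miRNAs, miR-1a-3p and miR-133a-3p passed the count minimum in both regions and rose, with a wide spread in the cauda. Of the 282 miRNAs above it in both, 22% were called higher. A further 4 (miR-133b-3p, miR-206-3p, miR-208b-3p and miR-499-5p) were called higher but passed the minimum only through the cauda, so that their calls add no support, and 1 member was left when each caput and cauda library had to hold 10 or more counts. miR-1a-3p was at 16.1, 5.52 and 9.33 CPM in the caput and 54.1, 161 and 355 CPM in the cauda (log2 fold change 3.87, SE 1.03, adjusted p = 0.00594). miR-133a-3p, which is transcribed with miR-1a, was at 16.7, 28.3 and 22.5 CPM in the caput and 70.1, 254 and 494 CPM in the cauda (log2 fold change 3.19, SE 0.84, adjusted p = 0.00568). Cauda library 1 was the lowest and cauda library 3 the highest for all 6, and the summed level was 33.4 to 36.6 CPM in the caput and 150.4 to 1076 CPM in the cauda. miR-206-3p, known from skeletal muscle, was at 0 in all caput libraries, and miR-208b-3p, encoded within a myosin heavy chain gene, at 0 in 2 of them. The number called of the 6 became 3 without caput library 1, caput library 3 or cauda library 2, and 4 without caput library 2, corpus library 2 or cauda library 3 or with the 6 caput and cauda libraries alone. miR-378a-3p, chosen after its values were seen and also abundant in muscle, followed the same order of cauda libraries, at 379, 479 and 419 CPM in the caput and 664, 1055 and 1648 CPM in the cauda (log2 fold change 1.30, adjusted p = 0.00177).

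Of the 6 stromal miRNAs (miR-199 and miR-214), 2 rose, miR-199a-3p and miR-199b-3p, which have identical counts and so are 1 measurement, beside 27.9% higher calls over all 355 miRNAs. They were at 527, 521 and 510.3 CPM in the caput and 977, 1144 and 1023 CPM in the cauda (log2 fold change 1.01, adjusted p = 3.18e-06). Both calls were lost without cauda library 2, and 3 of the 6 were held within 2-fold. The endothelial marker miR-126a was held in both arms, with miR-126a-5p at 17234, 13755 and 14137 CPM in the caput and 15571, 15772 and 15167 CPM in the cauda and a change of 0.05 (95% confidence interval -0.15 to 0.25) on the log2 scale. Of 6 leukocyte miRNAs, 5 passed the count minimum in both regions and 2 of these rose, miR-150-5p and miR-223-3p, beside 22% of the 282 miRNAs above it in both. miR-155-5p was called higher but passed it only through the cauda, and its call adds no support. The most abundant, miR-142a-5p, was at 843, 957 and 1049 CPM in the caput and 1732, 1729 and 1671 CPM in the cauda and was not called (log2 fold change 0.85, adjusted p = 6.44e-05). miR-223-3p, a miRNA of neutrophils and macrophages, was at 27.7, 16.6 and 14.3 CPM in the caput and 60.8, 41.2 and 56.6 CPM in the cauda (log2 fold change 1.49, adjusted p = 0.000557), and the summed level of the list was 1070.1 to 1279.7 CPM in the caput and 2028 to 2074 CPM in the cauda. The number of leukocyte calls, 3 with miR-155-5p, was 1 without cauda library 3, 2 without cauda library 2 and 5 when library totals were used for scaling.

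Erythroid miRNAs rose in tissue that had been perfused. miR-486a-5p, miR-486b-5p and miR-451a passed the count minimum in both regions and rose, beside 22% of the 282 miRNAs above it in both. miR-144-3p, miR-144-5p and miR-486a-3p were called higher but passed the minimum only through the cauda, so that their calls add no support. miR-486a-5p and miR-486b-5p, which have identical counts, were at 66.9, 63.5 and 63.7 CPM in the caput, 196 and 174 CPM in the corpus and 742, 1005 and 1202 CPM in the cauda and rose 14.8-fold (log2 fold change 3.89, SE 0.20, adjusted p = 9.3e-08). miR-486 is also known from muscle. miR-451a, the most abundant miRNA of mature red blood cells, was at 26.4, 19.3 and 18.1 CPM in the caput, 58.3 and 42.6 CPM in the corpus and 69.0, 163 and 81.9 CPM in the cauda and rose 4.56-fold (log2 fold change 2.19, SE 0.37, adjusted p = 0.000358). The summed level of the list, miR-144 and miR-486a-3p included, was 151 to 166 CPM in the caput and 1624 to 2562 CPM in the cauda. Most of this sum was miR-486a-5p and miR-486b-5p, whose identical counts both enter it.

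The 10 largest rises among miRNAs with at least 100 CPM in the higher region and no overlap between regions were miR-196b-5p, miR-196a-5p, miR-486a-5p, miR-486b-5p, miR-1a-3p, miR-133a-3p, miR-465a-5p, miR-871-5p, miR-743b-3p and miR-222-3p. The 10 largest falls were miR-204-5p, miR-9-5p, miR-138-5p, miR-375-3p, miR-135a-5p, miR-467a-5p, miR-146b-5p, miR-148a-5p, miR-429-3p and miR-10a-3p. All of them were called in each alternative fit in which they were tested and without each library in turn. miR-486, miR-1a and miR-133a belong to the erythroid and striated muscle lists above, and miR-465a-5p, miR-871-5p and miR-743b-3p to an X-linked cluster to be described.

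**Figure D2:**
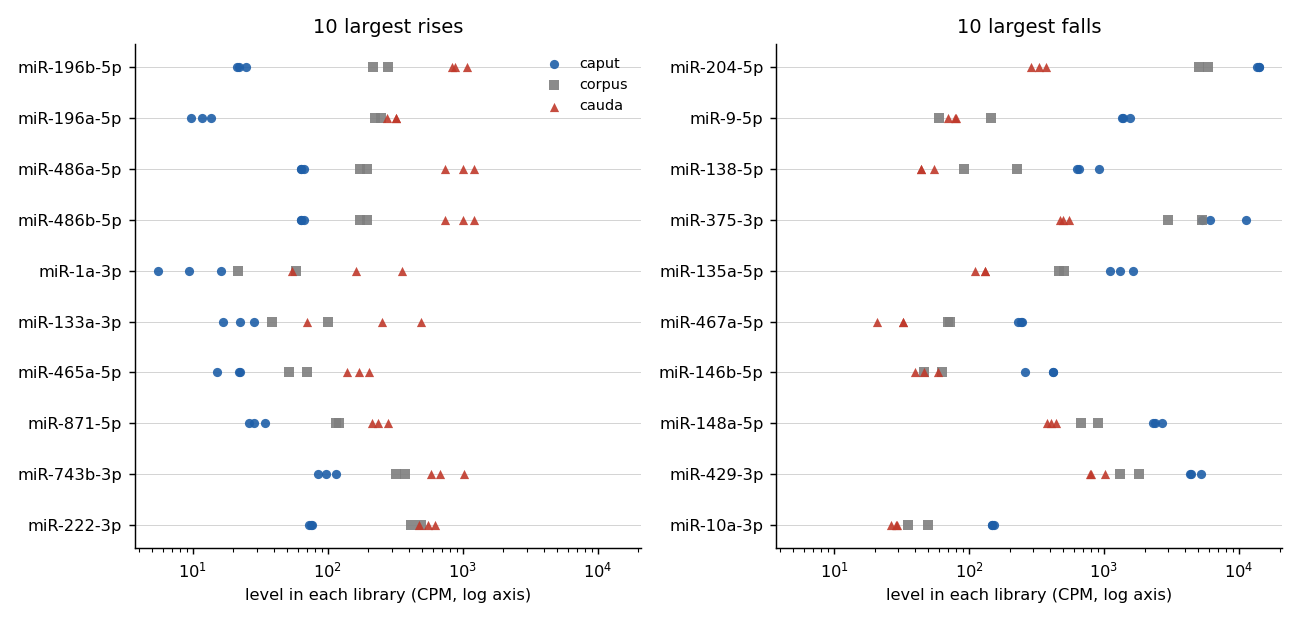
Level in each library (CPM, log axis) of the 10 largest rises (left) and the 10 largest falls (right), with 3 caput (circles), 2 corpus (squares) and 3 cauda (triangles) libraries. Circles and triangles do not overlap for any of them, as the choice of these miRNAs required, and the cauda triangles of miR-1a-3p and miR-133a-3p are the most widely spread.

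The miR-196 and miR-10 miRNAs of the Hox clusters moved in opposite directions along the duct. Of the 6 arms that passed the count minimum in both regions, 2 of miR-196 rose and 4 of miR-10 fell, beside 22% higher and 22.3% lower calls among the 282 miRNAs above it in both. miR-196a-2-3p and miR-196b-3p were called higher but passed it only through the cauda, so that their calls add no support. As background, the gene maps place miR-196b and miR-196a beside the more posterior Hox genes and miR-10a and miR-10b beside the more anterior ones. miR-196b-5p (chr6:52230129-52230150 on the minus strand) was at 21.9, 21.4 and 24.7 CPM in the caput, 217 and 280.0 CPM in the corpus and 834, 879.7 and 1076 CPM in the cauda. It rose 40.1-fold (log2 fold change 5.33, SE 0.20, adjusted p = 2.73e-08), the largest rise among miRNAs above 100 CPM. miR-196a-5p, from chr11:96265187-96265208 and chr15:102973365-102973386, was at 9.65, 11.7 and 13.7 CPM in the caput, 224 and 247 CPM in the corpus and 275, 322 and 319 CPM in the cauda and rose 25.4-fold (log2 fold change 4.67, SE 0.21, adjusted p = 6e-08). The corpus was close to the cauda for miR-196a-5p and in between for miR-196b-5p. Their other arms were low, with the cauda level of miR-196a-2-3p at least 6.95-fold and that of miR-196b-3p at least 4.93-fold higher than a caput set to the floor of 3 counts per library. miR-10b-5p (chr2:74726074-74726096 on the plus strand) was at 123604, 112281 and 121195 CPM in the caput, 97908 and 105516 CPM in the corpus and 43258, 45668 and 49374 CPM in the cauda and fell 2.58-fold (log2 fold change -1.37, SE 0.07, adjusted p = 1.16e-07). miR-10a-5p (chr11:96317186-96317208 on the plus strand), on the same strand of chromosome 11 as a copy of miR-196a, was at 88341, 81578 and 85306 CPM in the caput, 61621 and 64462 CPM in the corpus and 40365, 38057 and 40723 CPM in the cauda and fell 2.14-fold (log2 fold change -1.10, SE 0.07, adjusted p = 2.31e-07). The call of miR-10a-5p was lost with scaling by library totals, where the change was -0.75 on the log2 scale. The minor arm miR-10a-3p fell 5.25-fold, being at 152, 148 and 148 CPM in the caput and 29.4, 28.9 and 26.5 CPM in the cauda.

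miR-204-5p, which is encoded in an intron of Trpm3 and is known from epithelia of the eye and choroid plexus, had the largest fall of all. Located at chr19:22750610-22750631 on the plus strand, it was at 14140.4, 14177 and 13629 CPM in the caput, 5932 and 5043 CPM in the corpus and 287, 327 and 372 CPM in the cauda, so that the corpus lay between regions that were far apart. It fell 42.8-fold (log2 fold change -5.42, SE 0.11, adjusted p = 9e-11). miR-375-3p, known from endocrine cells and secretory epithelia, was at 6105, 11348 and 5279 CPM in the caput and 548, 493 and 470.4 CPM in the cauda and fell 14.2-fold (log2 fold change -3.82, SE 0.30, adjusted p = 1.35e-06). Its caput libraries differed among themselves, with library 2 the highest, and all stood above the cauda.

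Of a list of miRNAs known for high levels in brain, 8 passed the count minimum in both regions, of which 4 fell and 1 rose, beside 22.3% lower and 22% higher calls among the 282 such miRNAs. A further 3 passed it only through the caput and were called lower, and 2 only through the cauda and were called higher, and these calls add no support. miR-9-5p, a regulator of neural progenitors, was at 1352, 1546 and 1371 CPM in the caput, 146 and 59.7 CPM in the corpus and 70.1, 80.0 and 79.0 CPM in the cauda and fell 18.6-fold (log2 fold change -4.22, SE 0.23, adjusted p = 1.11e-07). Its other arm, miR-9-3p, which passed the minimum only through the caput, was at 52.1, 43.5 and 56.5 CPM in the caput and 2.06, 2.46 and 0.589 CPM in the cauda (log2 fold change -4.83, SE 0.48, adjusted p = 7.71e-06). Both arms were already far below the caput in the corpus. miR-138-5p was at 633, 917 and 651 CPM in the caput, 225 and 92.5 CPM in the corpus and 44.3, 44.3 and 54.8 CPM in the cauda and fell 15.1-fold (log2 fold change -3.92, SE 0.30, adjusted p = 1.22e-06). miR-135a-5p was at 1632, 1109.8 and 1309 CPM in the caput, 467 and 508 CPM in the corpus and 130.3, 110.2 and 130.3 CPM in the cauda and fell 10.8-fold (log2 fold change -3.43, SE 0.16, adjusted p = 6.33e-08), and miR-153-3p fell too. The member that rose, miR-132-3p, was low throughout, at 9.00, 10.3 and 3.84 CPM in the caput and 21.6, 33.2 and 25.9 CPM in the cauda (log2 fold change 1.89, SE 0.42, adjusted p = 0.00209). miR-128-3p, miR-7a-1-3p and miR-218-5p were held within 2-fold.

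The miR-200 family, which keeps cells epithelial by repressing Zeb1 and Zeb2, fell from caput to cauda in its major arms. Of its 9 tested arms, the 5 major ones fell and the 4 minor ones were not called, beside 25.4% lower calls over all 355 miRNAs, and the summed level was 20907 to 22703 CPM in the caput and 7718 to 9285 CPM in the cauda. miR-429-3p (chr4:156053916-156053937 on the minus strand) was at 4412, 5235 and 4354 CPM in the caput, 1809 and 1322 CPM in the corpus and 1009, 803 and 790.5 CPM in the cauda and fell 5.38-fold (log2 fold change -2.43, SE 0.14, adjusted p = 1.71e-07). miR-200a-3p, cut from the same cluster, was at 7163, 8038 and 7019 CPM in the caput, 5831 and 5516 CPM in the corpus and 3376, 3034 and 2913 CPM in the cauda (log2 fold change -1.25, SE 0.09, adjusted p = 6.66e-07). miR-200c-3p and miR-141-3p, from a cluster on chromosome 6, were a little higher in the corpus than in the caput, with miR-200c-3p at 3805, 3808 and 3855 CPM in the caput, 4108 and 4343 CPM in the corpus and 1848, 1391 and 1889 CPM in the cauda (log2 fold change -1.17, SE 0.11, adjusted p = 5.96e-06). With library totals for scaling, 1 of the 9 was called, where 5 were with TMM. Among 6 miRNAs of stratified epithelia and skin, miR-205-3p fell and miR-31-3p was called lower but passed the count minimum only through the caput, so that its call adds no support, whereas miR-205-5p, the abundant arm, was at 2304, 1927 and 1806 CPM in the caput and 1160.5, 941 and 1212 CPM in the cauda and was not called (log2 fold change -0.86, adjusted p = 9.76e-05).

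Other falls off these lists, chosen after their values were seen, concern abundant or clustered miRNAs. miR-182-5p, miR-183-5p and miR-96-5p, which form a cluster known from sensory epithelia, all fell, miR-182-5p being at 9677, 11366 and 12555 CPM in the caput and 2853, 2842 and 3077 CPM in the cauda (log2 fold change -1.93, SE 0.10, adjusted p = 9.3e-08). miR-146b-5p, induced by inflammatory signals in leukocytes and epithelia, was at 415, 260.0 and 421 CPM in the caput, 63.5 and 46.6 CPM in the corpus and 46.4, 59.1 and 39.5 CPM in the cauda and fell 7.51-fold (log2 fold change -2.91, SE 0.24, adjusted p = 1.83e-06). Its relative miR-146a-5p, of the same seed, was held within 2-fold, at 104, 58.6 and 119.6 CPM in the caput and 77.3, 90.5 and 69.6 CPM in the cauda and a change of -0.21 (95% confidence interval -0.75 to 0.32). Both arms of miR-744 and of miR-423 and the 5p arm of miR-672 fell as well.

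Members of an X-linked cluster known from testis and germ cells rose. Of 36 listed miRNAs, 12 passed the count minimum in both regions, and 12 of these rose, by a median log2 fold change of 2.86, beside 22% of the 282 miRNAs above it in both. A further 8 passed it only through the cauda, all but miR-465b-5p being called higher, and add no support. Where each caput and cauda library had to hold 10 or more counts, 12 of 12 were called higher. Their hairpins lie at chrX:66776757-66839125 on the minus strand, and the summed level was 553 to 914 CPM in the caput and 3461 to 5672 CPM in the cauda. miR-881-3p, the most abundant, was at 174, 139 and 125 CPM in the caput, 431 and 487 CPM in the corpus and 1252, 826 and 997 CPM in the cauda and rose 7.01-fold (log2 fold change 2.81, SE 0.18, adjusted p = 3.36e-07). miR-743b-3p was at 114, 97.3 and 84.5 CPM in the caput, 319.7 and 371 CPM in the corpus and 1022, 584 and 683 CPM in the cauda and rose 7.60-fold (log2 fold change 2.93, SE 0.22, adjusted p = 1.12e-06). miR-871-5p was at 34.1, 26.2 and 28.5 CPM in the caput, 115 and 120.0 CPM in the corpus and 278, 211 and 235 CPM in the cauda (log2 fold change 3.01, SE 0.17, adjusted p = 1.49e-07), and miR-465a-5p at 22.5, 15.2 and 22.0 CPM in the caput, 51.5 and 70.2 CPM in the corpus and 202, 139 and 171 CPM in the cauda (log2 fold change 3.08, SE 0.24, adjusted p = 1.22e-06). For these 4, cauda library 1 was the highest and the corpus lay between the regions. miR-465b-5p was at 0, 4.14 and 2.74 CPM in the caput and 0, 43.1 and 50.1 CPM in the cauda (log2 fold change 2.08, SE 2.62, adjusted p = 0.482), while its near-identical relative miR-465c-5p was at 48.2, 26.9 and 28.0 CPM in the caput and 309, 155 and 245 CPM in the cauda, so that the division of reads between them is uncertain. The 3p arms of miR-465a, miR-465b and miR-465c have identical counts and are a single measurement listed 3 times.

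The miR-34 and miR-449 miRNAs, which serve multiciliated cells and are abundant in testis and sperm, passed the test in 3 of 6 cases, higher in each, beside 27.9% higher calls over all 355 miRNAs. miR-34c-3p was at 21.9, 35.2 and 28.5 CPM in the caput, 70.2 and 82.0 CPM in the corpus and 231, 175 and 173 CPM in the cauda and rose 6.81-fold (log2 fold change 2.77, SE 0.21, adjusted p = 1.01e-06). miR-34b-3p was at 76.5, 93.1 and 102 CPM in the caput and 734, 499.9 and 527 CPM in the cauda (log2 fold change 2.68, SE 0.18, adjusted p = 4.33e-07) and miR-34b-5p at 148, 201 and 164 CPM in the caput and 421, 344 and 405 CPM in the cauda (log2 fold change 1.20, SE 0.14, adjusted p = 2.5e-05). The most abundant member, miR-34c-5p, was at 3388, 4749.7 and 4234 CPM in the caput and 8881, 7334 and 8203 CPM in the cauda, a change of 0.99 (95% confidence interval 0.70 to 1.29) just under 2-fold, and it was called in 6 of the 8 alternative fits. miR-34a-5p, which is not in the same cluster, was at 158, 134 and 119 CPM in the caput and 111, 78.8 and 96.1 CPM in the cauda and was held within 2-fold.

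Members of a pair of large miRNA clusters, both in imprinted loci, were called in opposite directions. The Dlk1-Dio3 region of chromosome 12, an imprinted domain in which these miRNAs come from the maternal copy, held 77 listed miRNAs. Of the 17 that passed the count minimum in both regions, 15 rose and 0 fell, with a median log2 fold change of 1.40, beside 22% higher and 22.3% lower calls among the 282 such miRNAs and a median of -0.05 over all 355. A further 15 passed it only through the cauda, of which 13 were called higher, and add no support. Under the stricter minimum of 10 counts in each caput and cauda library, 14 of 16 were called higher. The summed level of the list was 4568 to 4972 CPM in the caput and 9260.3 to 9942 CPM in the cauda. miR-411-5p was at 1284, 1291 and 1288 CPM in the caput, 1564 and 1541 CPM in the corpus and 2591, 2999 and 2500.4 CPM in the cauda (log2 fold change 1.06, SE 0.09, adjusted p = 1.86e-06). miR-434-3p was at 354, 379 and 409 CPM in the caput, 649.9 and 620.4 CPM in the corpus and 961, 1152 and 1234 CPM in the cauda (log2 fold change 1.54, SE 0.11, adjusted p = 9.81e-07), and miR-410-3p at 192, 182 and 184 CPM in the caput, 258 and 256 CPM in the corpus and 519.7, 520.2 and 445 CPM in the cauda (log2 fold change 1.41, SE 0.10, adjusted p = 8.74e-07). The most abundant member, miR-127-3p, was at 2682, 2327 and 2424 CPM in the caput and 4173, 4093 and 4078 CPM in the cauda and was held within 2-fold (log2 fold change 0.73, adjusted p = 1.29e-05). With the Wald test of DESeq2, 20 of the 32 tested were called, where limma-voom called 28. The cluster within Sfmbt2 on chromosome 2, a rodent expansion of near-identical hairpins, held 58 listed miRNAs. Of the 6 that passed the count minimum in both regions, 4 fell and 0 rose, with a median log2 fold change of -1.85, again beside 22.3% lower and 22% higher calls. A further 9 passed it only through the caput, all called lower, and add no support. Under the stricter minimum, 4 of 4 were called lower. miR-467a-5p was at 243, 245 and 229 CPM in the caput, 71.7 and 69.5 CPM in the corpus and 32.5, 20.9 and 32.4 CPM in the cauda and fell 8.37-fold (log2 fold change -3.07, SE 0.17, adjusted p = 1.11e-07). miR-467c-5p was at 55.3, 68.3 and 57.6 CPM in the caput and 7.21, 6.77 and 5.89 CPM in the cauda (log2 fold change -3.12, SE 0.23, adjusted p = 1.01e-06). Hairpins of this cluster share reads, miR-669a-5p with miR-669p-5p and miR-669a-3p with miR-669o-3p having identical counts.

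**Figure D3:**
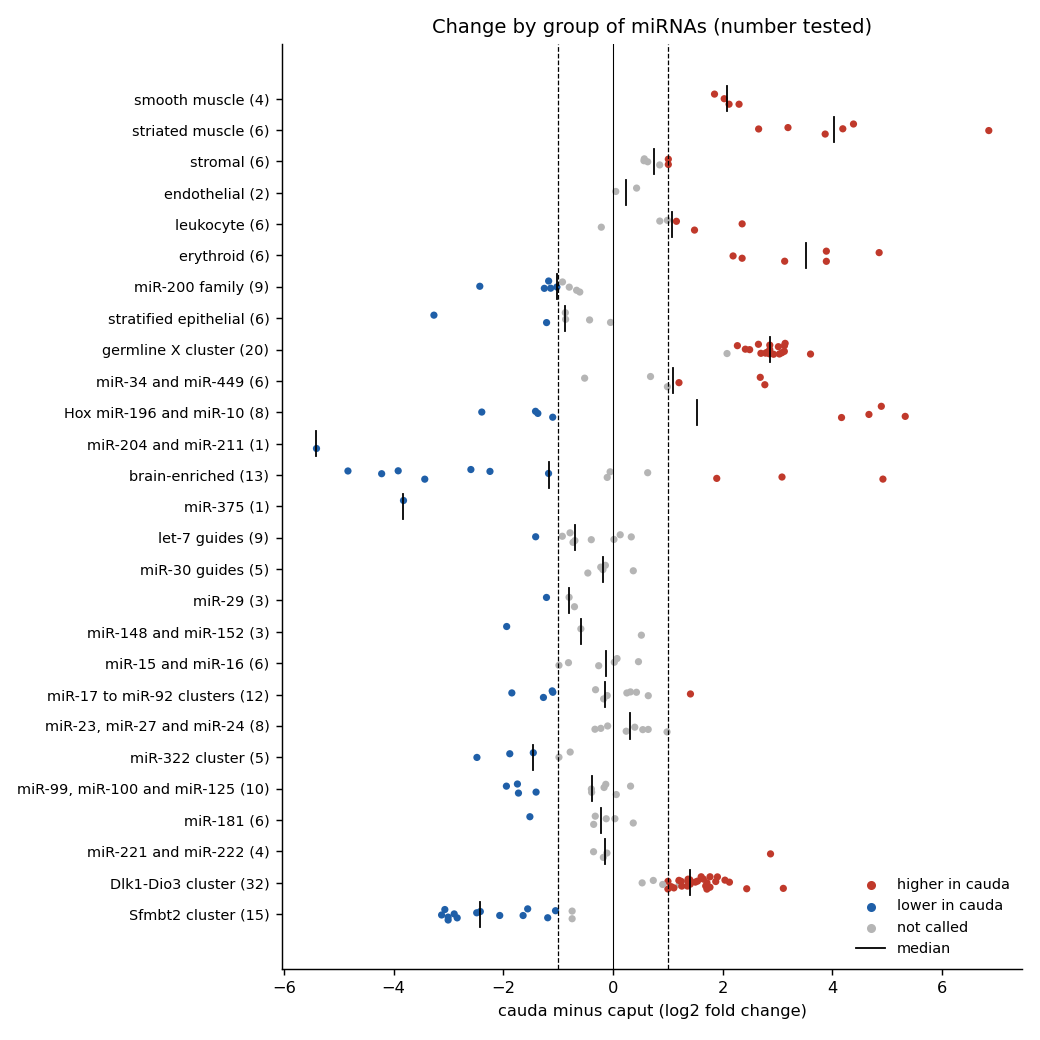
Change from caput to cauda (log2 fold change, x axis) of the tested members of each list, 1 point per miRNA, with the number tested beside the name, a black bar at the median and dashed lines at a 2-fold change. Members that passed the count minimum only through the region where they were high are drawn too. The 20 miRNAs of the germline X cluster and the 32 of the Dlk1-Dio3 cluster lie to the right of 0, the 15 of the Sfmbt2 cluster to the left, and those of miR-30 and of miR-23, miR-27 and miR-24 within the dashed lines.

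Most members of several families of widely expressed miRNAs were not called. Over all 355 miRNAs, 53.2% were called, 27.9% higher and 25.4% lower, and 109 were held within 2-fold. Of the 9 let-7 guides, which promote differentiation in many tissues, let-7b-5p alone fell, at 1889, 2162 and 2094 CPM in the caput and 750.5, 779 and 780.4 CPM in the cauda (log2 fold change -1.41, SE 0.09, adjusted p = 4.15e-07), and 6 were held within 2-fold. let-7a-5p, which shares its seed, was at 9604, 9929 and 8825 CPM in the caput and 11426, 10779 and 8956 CPM in the cauda, a change of 0.13 (95% confidence interval -0.09 to 0.36). None of the 5 miR-30 guides was called and all of these were held, with changes between -0.46 and 0.37 on the log2 scale. Of the 8 miRNAs of miR-23, miR-27 and miR-24, 0 were called and 7 held, the exception being miR-23a-3p at 543, 446 and 506 CPM in the caput and 913, 994 and 1053 CPM in the cauda (log2 fold change 0.99, adjusted p = 9.69e-06). Of the 6 miR-15 and miR-16 guides 0 were called, and of the 6 miR-181 miRNAs the 3p arm of miR-181c fell.

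In several families only some of the members were called. miR-148a-3p fell 3.83-fold, as given above, while miR-148b-3p, which has the same seed and differs by C9U and U10C, was at 418, 409 and 469 CPM in the caput and 332, 275 and 259 CPM in the cauda with a change of -0.59 (95% confidence interval -0.84 to -0.33), and miR-152-3p at 88.7, 93.8 and 107 CPM in the caput and 155, 127 and 133 CPM in the cauda with a change of 0.52 (95% confidence interval 0.22 to 0.82). Since miR-148a-3p was by far the most abundant of the 3, their summed level was 141350.0 to 179132 CPM in the caput and 38472 to 43920.3 CPM in the cauda. miR-29c-3p, a repressor of collagen genes, fell (log2 fold change -1.21, SE 0.09, adjusted p = 1.12e-06) and lost its call under library totals, and miR-29a-3p, at 5453, 5676 and 6378 CPM in the caput and 3557, 3514 and 3673 CPM in the cauda, was held. miR-222-3p was at 72.0, 76.6 and 74.6 CPM in the caput, 416 and 489 CPM in the corpus and 626, 471 and 549 CPM in the cauda and rose 7.32-fold (log2 fold change 2.87, SE 0.14, adjusted p = 9.3e-08), while miR-221-3p, encoded beside it on the X chromosome and with the same seed, was at 515, 509.7 and 460.4 CPM in the caput and 494, 380.4 and 441 CPM in the cauda with a change of -0.18 (95% confidence interval -0.43 to 0.07). Of 10 miRNAs of miR-99, miR-100 and miR-125, 4 fell, all from the hairpins of miR-99b and miR-125a, which lie close together on chromosome 17, beside 25.4% lower calls over all 355 miRNAs. miR-99b-5p was at 17595, 16894 and 22477 CPM in the caput and 5871, 4984 and 6112 CPM in the cauda (log2 fold change -1.74, SE 0.12, adjusted p = 5.74e-07), and miR-125b-5p, held within 2-fold, at 4442, 4027 and 4551 CPM in the caput and 4163, 4571 and 4861 CPM in the cauda. Of the 4 miRNAs of the X-linked miR-322 cluster that passed the count minimum in both regions 2 fell, beside 22.3% of the 282 such miRNAs, and miR-450b-5p, called lower, passed it only through the caput and adds no support. miR-351-5p was at 214, 292 and 171 CPM in the caput and 49.4, 68.3 and 62.5 CPM in the cauda (log2 fold change -1.88, SE 0.21, adjusted p = 2.19e-05).

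The growth-promoting miR-17 to miR-92 clusters held 12 tested miRNAs, of which 4 fell, 1 rose and 6 were held. Over all 355 miRNAs, 25.4% fell and 27.9% rose. Among the 10 above the count minimum in both regions 3 fell, beside 22.3% of the 282 such miRNAs, as miR-17-3p passed it only through the caput. miR-17-5p was at 327, 305 and 285 CPM in the caput and 92.2, 85.0 and 77.2 CPM in the cauda and fell 3.59-fold (log2 fold change -1.84, SE 0.12, adjusted p = 3.11e-07), and miR-20a-5p was at 285, 266 and 226 CPM in the caput and 127, 107 and 123 CPM in the cauda (log2 fold change -1.11, SE 0.13, adjusted p = 2.49e-05). miR-18a-5p, from the same transcript at chr14:115043671-115044506, was at 20.6, 14.5 and 15.4 CPM in the caput and 51.0, 41.9 and 41.3 CPM in the cauda and rose 2.66-fold (log2 fold change 1.41, SE 0.21, adjusted p = 0.000153). The 4 lower calls became 2 without caput library 2 or cauda library 2 and 1 with library totals, and the rise was called in each of these.

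Among the 298 miRNAs with a RefSeq sequence, 41 seeds were shared by at least 2 tested miRNAs, 112 in all, so that families with unmatched members are incomplete. In 15 of these families at least 2 members were called, and in 0 of the 15 were members called in both directions. Of 16 groups of hairpins at most 10 kb apart with at least 4 tested miRNAs, 13 held a call, and the miR-17 to miR-92 cluster on chromosome 14 was the only one with calls in both directions. Members of a family can share reads and members of a cluster share a transcript, so these counts are a description.

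The arms of a hairpin were compared as their ratio within a library, which needs no scaling. Both arms passed the count minimum, in at least 1 region each, for 94 hairpins. In 34 both arms were called in the same direction, in 0 in opposite directions, in 29 only 1 arm was called, and the ratio was called in 15 (16%). In 6 of these (miR-31, miR-222, miR-669a, miR-362, miR-195a and miR-3068) an arm passed the minimum only through the caput, where it was higher, so that their calls add no support, and 7 of 57 ratios were called when every caput and cauda library had to hold 10 counts of both arms. The 5p arm of miR-31 was 93.3 ± 1.78% in the caput and 99.3 ± 0.429% in the cauda (mean ± SD, n = 3) of the reads of the hairpin, where miR-31-3p was at 25.7, 16.6 and 18.7 CPM in the caput and 3.61, 1.23 and 1.18 CPM in the cauda and miR-31-5p at 275, 314 and 263 CPM in the caput and 297, 292 and 236 CPM in the cauda (log2 ratio change 3.25, SE 0.40, adjusted p = 0.000311). In miR-222 the 5p arm was 8.00 ± 3.39% in the caput and 0.89 ± 0.275% in the cauda (mean ± SD, n = 3), at few counts, while miR-222-3p rose (log2 ratio change -3.24, SE 0.38, adjusted p = 0.000278). miR-669a moved from mostly 5p to mostly 3p, with 71.6 ± 4.47% in the caput and 33.7 ± 11.1% in the cauda (mean ± SD, n = 3) in the 5p arm (log2 ratio change -2.29, SE 0.45, adjusted p = 0.00465), each arm sharing reads with another hairpin. In miR-34b, 65.3 ± 3.37% in the caput and 40.2 ± 3.52% in the cauda (mean ± SD, n = 3) of the reads were of the 5p arm (log2 ratio change -1.49, SE 0.18, adjusted p = 0.000311), so that the major arm changed although both arms rose. In miR-34c the 5p arm was 99.3 ± 0.0482% in the caput and 97.7 ± 0.235% in the cauda (mean ± SD, n = 3) (log2 ratio change -1.77, SE 0.12, adjusted p = 1.46e-05). The call of miR-362, the other of the 5 largest (log2 ratio change -1.89, SE 0.60, adjusted p = 0.045), was kept in 1 of 3 alternatives and 1 of 8 fits without a library, and its 5p arm had a mean of 16.3 counts in the caput and 7.33 in the cauda. The ratio also moved towards the 5p arm in let-7d, miR-195a, miR-181c, miR-130b, miR-10a, miR-15b and miR-26b and towards the 3p arm in miR-3068 and miR-582. The calls of miR-195a and miR-3068 were lost with a pseudocount of 5, miR-130b was called in 0 of 3 alternatives and 1 of 8 fits without a library, and miR-582 was called in 3 of these 8 and lost its call with the replicate number as a block.

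**Figure D4:**
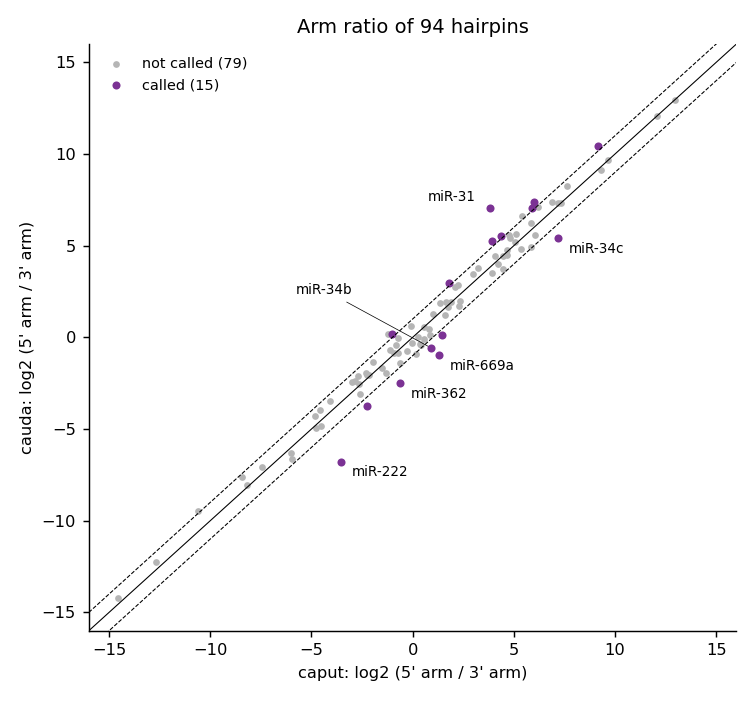
Mean log2 ratio of the 5p to the 3p arm in the caput (x axis, n = 3) and in the cauda (y axis, n = 3) of 94 hairpins, 1 point each, with a line of equal ratios and dashed lines at a 2-fold change of the ratio. The 15 called hairpins lie outside the dashed lines, miR-31 above and miR-222, miR-669a, miR-362, miR-34b and miR-34c below.

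The corpus, which did not enter the contrast, mostly had intermediate levels. Its mean lay between those of the caput and cauda for 161 of the 189 called miRNAs, 90 of the rises and 71 of the falls, and for 54 of the 166 not called. Since called miRNAs have regions at least 2-fold apart, a corpus mean falls between them more readily than for those not called. On a log2 scale from 0 at the caput to 1 at the cauda, the median position of the corpus was 0.48 for all called miRNAs, 0.47 for the rises and 0.53 for the falls. Single miRNAs differed widely, from 0.25 for miR-204-5p and 0.21 for miR-143-3p to 0.93 for miR-9-5p, 0.92 for miR-196a-5p and 0.90 for miR-222-3p. Among the 28 called miRNAs outside the range, the corpus was above both regions for 4 rises and 7 falls and below both for 5 rises and 12 falls. Chosen after their values were seen, miR-184-3p was at 23.2, 11.7 and 13.2 CPM in the caput, 260.0 and 327 CPM in the corpus and 99.4, 77.6 and 87.2 CPM in the cauda (log2 fold change 2.50, adjusted p = 1.07e-05), and miR-190a-5p at 19.9, 18.6 and 22.5 CPM in the caput, 246 and 309.6 CPM in the corpus and 71.6, 71.4 and 79.0 CPM in the cauda (log2 fold change 1.84, adjusted p = 8.22e-06). Both had their peak in the corpus. miR-107-3p had its lowest level there, at 214, 260.0 and 212 CPM in the caput, 51.5 and 46.6 CPM in the corpus and 86.0, 76.3 and 69.6 CPM in the cauda (log2 fold change -1.55, adjusted p = 2.51e-06).

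Above the mean count of 10, 312 miRNAs were found in the caput and 325 in the cauda, 282 in both. Of the 30 found in the caput only, 27 were called lower, and of the 43 found in the cauda only, 37 were called higher. Since such miRNAs passed the count minimum through the region where they are high, these shares are no result of their own. miR-1251-5p, miR-9-3p and miR-467d-5p had the highest counts of those found in the caput only, and miR-1251-5p was at 64.3, 62.1 and 56.0 CPM in the caput, 35.1 and 28.9 CPM in the corpus and 5.67, 8.00 and 2.36 CPM in the cauda (log2 fold change -3.58, SE 0.34, adjusted p = 6.25e-06). Of those found in the cauda only, miR-208b-3p had the highest mean count and was at 0, 0.69 and 0 CPM in the caput, 0.747 and 11.8 CPM in the corpus and 15.5, 59.7 and 163 CPM in the cauda. Against a caput at the floor of 3 counts per library it was at least 42.2-fold higher, or at least 19.97-fold without cauda library 3, and its call was lost without caput library 1, caput library 3 or cauda library 2. miR-880-3p and miR-878-5p of the X-linked cluster came next, miR-880-3p being at 10.3, 3.45 and 2.74 CPM in the caput and 60.3, 28.3 and 41.9 CPM in the cauda (log2 fold change 3.12, SE 0.52, adjusted p = 0.000332).

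The study also sequenced epithelial cells isolated from each region, pooled from more mice, with 2 libraries per region and between 179060 and 362867 counts in those of the caput and cauda. miR-143-3p was the most abundant miRNA in every one of these libraries. Both preparations were fitted together over the 194 miRNA names found in both, with scaling over these names, which places the tissue changes of this paragraph about 0.3 above those given so far on the log2 scale. Of 88 miRNAs called in whole tissue, 78 (88.6%) had a change of the same sign in epithelial cells, beside 153 of all 194 (78.9%). The changes correlated at r = 0.84 across miRNAs, which are not independent and share libraries. The interaction of preparation and region was called for 25 miRNAs (12.9%).

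Some of the largest changes of whole tissue had no called difference between preparations, which alone does not show that the changes were alike. For miR-133a-3p the change was 0.21 in epithelial cells beside 3.49 in whole tissue (difference -3.28 on the log2 scale, SE 1.16, adjusted p = 0.0681). miR-204-5p was at 26167 and 24457 CPM in the caput and 625 and 773 CPM in the cauda of the epithelial cells, and its change was -5.10 in whole tissue (difference 0.10 on the log2 scale, SE 0.22, adjusted p = 0.776). miR-196b-5p was at 89.6 and 35.3 CPM in the caput and 3964 and 2011 CPM in the cauda, with changes of 5.79 and 5.65 (difference 0.14 on the log2 scale, SE 0.56, adjusted p = 0.873). For miR-465a-5p the epithelial levels were 3.09 and 3.21 CPM in the caput and 44.4 and 85.4 CPM in the cauda (difference 0.50 on the log2 scale, SE 0.55, adjusted p = 0.553), from 12.0 and 18.0 counts in the cauda.

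Other changes differed by the test of the difference itself. miR-135a-5p was at 1783 and 2105 CPM in the caput and 1076 and 1048 CPM in the cauda of the epithelial cells, a change of -0.67 beside -3.11 in whole tissue (difference 2.44 on the log2 scale, SE 0.30, adjusted p = 0.000463). In the miR-322 cluster, miR-450a-5p was at 98.9 and 38.6 CPM in the caput and 163 and 119 CPM in the cauda of the epithelial cells, where it fell in whole tissue (difference 2.47 on the log2 scale, SE 0.45, adjusted p = 0.00303), and miR-351-5p was at 176 and 99.6 CPM in the caput and 137 and 209 CPM in the cauda (difference 2.08 on the log2 scale, SE 0.44, adjusted p = 0.00798). miR-143-3p was at 139193 and 186073 CPM in the caput and 314781 and 152118 CPM in the cauda, a change of 0.65 beside 2.35 in whole tissue (difference -1.70 on the log2 scale, SE 0.33, adjusted p = 0.00529). In the miR-200 family, miR-200b-3p was at 3461 and 2949.9 CPM in the caput and 5021 and 6962 CPM in the cauda (difference 1.90 on the log2 scale, SE 0.25, adjusted p = 0.000467), against the direction of whole tissue. miR-31-5p was at 247 and 251 CPM in the caput and 44.4 and 85.4 CPM in the cauda (difference -2.08 on the log2 scale, SE 0.36, adjusted p = 0.00248), and miR-132-3p at 114 and 116 CPM in the caput and 118 and 52.2 CPM in the cauda (difference -2.46 on the log2 scale, SE 0.56, adjusted p = 0.0116). Preparation, depth and the mice pooled differ together between the sets of libraries and cannot be told apart.

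**Figure D5:**
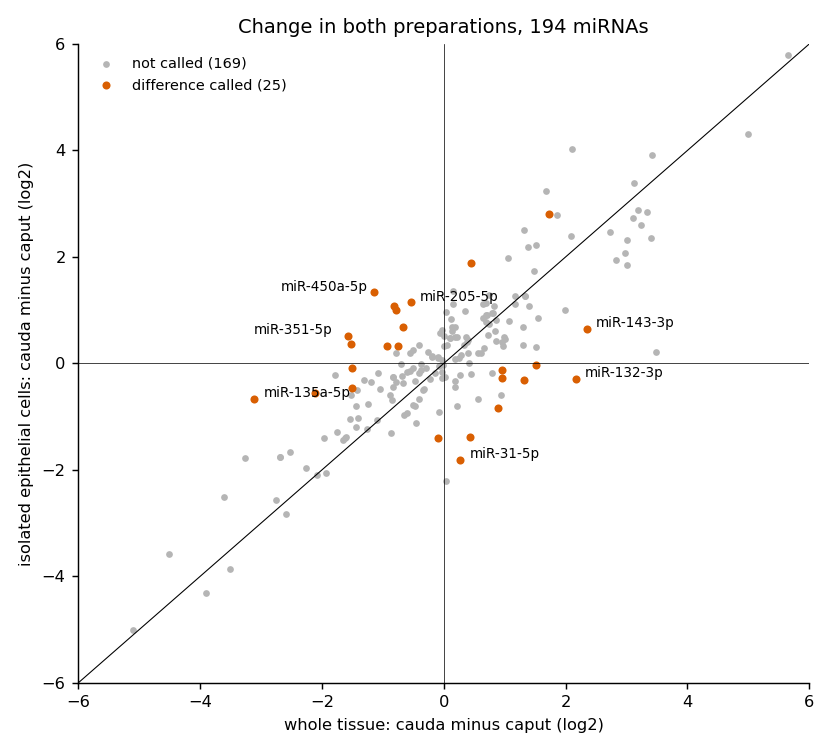
Change from caput to cauda (log2) in whole tissue (x axis) and in isolated epithelial cells (y axis) for 194 miRNAs, 1 point each, with a line of equal change. The 25 miRNAs for which the difference was called lie away from the line, miR-450a-5p, miR-351-5p and miR-205-5p above it and miR-132-3p, miR-143-3p and miR-31-5p below it.

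The split between rises and falls depended on how the libraries were scaled. With library totals in place of TMM factors, the median log2 fold change of the 355 miRNAs moved by 0.35 upwards, and 115 miRNAs were called higher and 65 lower (63.9% higher, beside 52.4% with TMM), with 0 changes of sign among the 189.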

How the data were processed

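Small RNA libraries (TruSeq kit, single-end reads) were trimmed and aligned by the authors to the mouse genome (mm10) and to miRBase, the processing notes naming Bowtie 1.1.1, CASAVA 1.8.2 and limma, and the values the authors deposited are expected counts for each mature miRNA, in which a read that matches several miRNAs is divided, and they were here rounded to whole counts. The counts of 2 tables, whole tissue (8 libraries) and isolated epithelial cells (6 libraries), were used. The epithelial table carries a constant of 0.001 added by the authors, which was removed. Counts were scaled by TMM (edgeR 4.0.16) and fitted with limma-voom (limma 3.58.1, R 4.3.3) over the 360 miRNAs with a mean count above 10 in any of the 3 regions, and p-values were adjusted by Benjamini-Hochberg over the 355 with that mean in the caput or cauda. Arm ratios were tested with limma on log2 ratios with 0.5 counts added to each arm, and the difference between preparations as an interaction in limma-voom. Alternatives used edgeR's quasi-likelihood test, DESeq2 1.42.0, other scalings, other count minimums, the 6 libraries alone, a replicate block and the omission of each library. Named miRNAs were the 10 largest rises and falls without overlap and with at least 100 CPM in the higher region, the 5 most abundant of each region, the 5 largest arm and preparation differences, and the 3 most abundant miRNAs found in a single region, with list members as examples by level, change or use as a marker. Other named miRNAs were chosen after their values were seen. The miRNA lists, like the comparison itself, were chosen with earlier results of these data known.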

Additional observations from a re-analysis of the deposited data

Results flagged for a closer look

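For 25 of 194 miRNAs the change from caput to cauda differed between isolated epithelial cells and whole tissue by the interaction of preparation and region in limma-voom (adjusted p below 0.05 and a difference of at least 2-fold). Each value is the epithelial change minus the whole tissue change on the log2 scale. The change was more positive in epithelial cells by 2.47 for miR-450a-5p, 2.44 for miR-135a-5p, 2.08 for miR-351-5p, 1.90 for miR-17-5p, 1.90 for miR-200b-3p, 1.80 for miR-20a-5p, 1.69 for miR-205-5p, 1.55 for miR-429-3p, 1.36 for miR-322-5p and 1.26 for miR-200a-3p. It was more negative by -2.46 for miR-132-3p, -2.08 for miR-31-5p, -1.82 for miR-455-5p, -1.73 for miR-214-3p and -1.70 for miR-143-3p. These 15 differences were called in every alternative fit in which they were tested and in at least 9 of the 10 fits without a library.

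The other 10 depended more on the libraries used. They were 1.44 for miR-29a-5p, 1.42 for miR-423-5p, 1.08 for miR-423-3p, 1.08 for miR-410-3p and 1.04 for miR-183-5p in the positive direction, and -1.62 for miR-34c-5p, -1.56 for miR-676-3p, -1.31 for miR-574-3p, -1.22 for miR-218-5p and -1.08 for miR-199a-5p in the negative direction, and each was called in 3 to 7 of the 10 fits without a library. In 17 of the 25 the fitted changes of the preparations had opposite signs. miR-200b-3p, for example, changed by 1.08 in epithelial cells and -0.82 in whole tissue under the shared scaling. Epithelial libraries had 2 replicates and lower totals, and the part of depth and of cell isolation in these differences was not tested.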

How the results depend on the processing

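Of the 189 called miRNAs, 0 changed sign in any alternative. The number called was 192 with the quasi-likelihood test of edgeR, 172 with the Wald test of DESeq2, 189 with DESeq2 size factors, 180 with library totals, 185 with the 6 caput and cauda libraries alone and 257 of 878 with every miRNA of at least 1 count tested. It was 174 to 196 with each library left out in turn, lowest without cauda library 2 and highest without cauda library 1. With at least 10 counts required in every caput and cauda library, which left 268 miRNAs, 117 were called, 62 higher and 55 lower, and the corpus lay between the regions for 99. The same minimum on both arms left 57 hairpins, with 7 arm ratios called. Between caput and cauda libraries of the same replicate number, deviations from the region mean correlated at 0.185, 0.121 and 0.038. Between libraries of different numbers the correlations ran from -0.236 to 0.148, the highest for caput library 3 with cauda library 2. These values do not settle whether libraries of the same number were paired. A fit with the replicate number as a block called 187 miRNAs, 185 of them among the 189. Low counts limited the minor arms and the miRNAs found in a single region.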

Other observations

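Outside the groups of miRNAs described, and chosen after their values were seen, both arms of miR-335, which is encoded in the imprinted gene Mest, rose from caput to cauda. miR-335-3p was at 61.1, 84.8 and 84.5 CPM in the caput, 201 and 188 CPM in the corpus and 575, 612 and 484 CPM in the cauda (log2 fold change 2.86, SE 0.15, adjusted p = 1.1e-07), and miR-335-5p at 54.7, 66.2 and 66.9 CPM in the caput, 168 and 205 CPM in the corpus and 342, 365 and 292 CPM in the cauda (log2 fold change 2.40, SE 0.15, adjusted p = 2.67e-07). The corpus lay between the regions for both arms, and the libraries did not overlap. miR-193a-3p and miR-365-3p also rose, miR-193a-3p being at 46.3, 50.4 and 46.6 CPM in the caput and 156, 211 and 222 CPM in the cauda (log2 fold change 2.01, SE 0.17, adjusted p = 2.08e-06). miR-708-5p, from a hairpin within Tenm4, passed the count minimum only through the cauda, and was at 1.29, 4.83 and 6.04 CPM in the caput and 36.1, 29.5 and 27.1 CPM in the cauda.

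Among falls outside these groups, miR-149-5p was at 134, 155 and 177 CPM in the caput, 49.3 and 43.3 CPM in the corpus and 25.8, 34.5 and 36.0 CPM in the cauda (log2 fold change -2.29, SE 0.18, adjusted p = 1.18e-06), and miR-92b-3p at 112, 187 and 196 CPM in the caput, 32.9 and 16.4 CPM in the corpus and 31.4, 33.9 and 48.9 CPM in the cauda (log2 fold change -2.10, SE 0.28, adjusted p = 7e-05). miR-210-3p, a miRNA induced by low oxygen, had its highest mean in the corpus, at 849.5, 795 and 791 CPM in the caput, 1012 and 836 CPM in the corpus and 429.6, 359 and 308 CPM in the cauda (log2 fold change -1.16, SE 0.13, adjusted p = 1.88e-05). Corpus library 2 lay below caput library 1.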
